A study of Mus musculus with 2 samples.

Results

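The cells described here are 411 GABAergic neurons of the embryonic day 16.5 mouse brain that carried messages for the dopamine receptor Drd2 or the homeobox factor Six3. They were selected on raw UMIs (unique molecular identifiers, each counted as 1 captured RNA molecule) in cells with 1500 to 60000 UMIs and under 10% of UMIs from mitochondrial (mt-) genes. A cell was chosen by at least 2 UMIs summed over Drd2 and Six3, at least 2 UMIs summed over the GABAergic genes Gad1, Gad2, Dlx1 and Dlx6os1, no UMI of Isl1, Lhx6, Prox1 or Top2a, and at most 1 UMI of Ebf1. The rule found 208 of 8139 passing cells in WT replicate 1 (2.56%, 95% Wilson interval 2.23 to 2.92) and 203 of 8209 in WT replicate 6 (2.47%, 2.16 to 2.83), together 411 of 16348, out of 27182 cell barcodes in the files. The mean share was 2.51% ± 0.0585 (SD, n = 2 libraries). The intervals cover counting error only.

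Both libraries came from WT embryos of a series on deletion of the histone methyltransferase gene Dot1l with Emx1-Cre, a Cre driver active in the dorsal forebrain. The labels give the genotype of both as WT and no further allele, agent or sex. The tissue was labelled as brain hemispheres, of which the dorsal telencephalon was dissociated with papain, and 3' libraries were made with the droplet system of 10x Genomics. Libraries of other genotypes were not analysed here.

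Striatal projection neurons are GABAergic cells born in the lateral ganglionic eminence (LGE), a proliferative zone of the ventral forebrain. They form 2 output routes of the striatum. Direct-pathway neurons carry the dopamine receptor Drd1 and the neuropeptide gene Tac1 and depend on Isl1 and Ebf1, while indirect-pathway neurons carry Drd2, the adenosine receptor Adora2a and the enkephalin precursor Penk and depend on the transcription factors Six3 and Sp9. The LGE also gives rise to neurons of the olfactory bulb and amygdala, for which Tshz1 and Pbx3 are among the known markers.

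The libraries held 74930397 and 68964234 UMIs in 14136 and 13046 barcodes. The chosen cells contributed 1494670 and 1259661 UMIs, at a median of 6503 and 5302 UMIs and 2647.5 and 2401 genes per cell. A simulated-doublet score marked 21 and 20 of them as likely doublets, against 11.3% and 10.4% of all passing cells, and 59 barcodes occurred in both libraries, none of them as a chosen cell in both. Genes were compared on UMIs summed per library and class with edgeR's quasi-likelihood test, 2 sums against 2, with Benjamini-Hochberg adjustment over all genes tested. Levels are given as CPM, UMIs of the gene scaled to a common library total (counts per 1e6 summed UMIs), first for replicate 1 and then for replicate 6. The p-values measure the spread between these 2 libraries, which may be technical, since the labels do not say whether they came from separate embryos.

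The genes of the rule give the outline of the class, as a description with no test. Drd2 stood at 191 and 195 CPM and Six3 at 555 and 827 CPM in the chosen cells, while in Ebf1/Isl1 neurons Drd2 stood at 1.41 and 2.10 CPM and Six3 at 7.96 and 9.97 CPM. Of the 411 cells, 146 held both messages, 53 held Drd2 alone and 212 held Six3 alone, so that 48.4% had a Drd2 UMI. The maximum was 15 UMIs for Drd2 and 34 for Six3. Six3os1, the transcript next to Six3, read 202 and 318 CPM against 7.03 and 5.77 CPM in Ebf1/Isl1 neurons, and since reads of the neighbours may be shared it was kept out of every test.

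**Figure D1:**
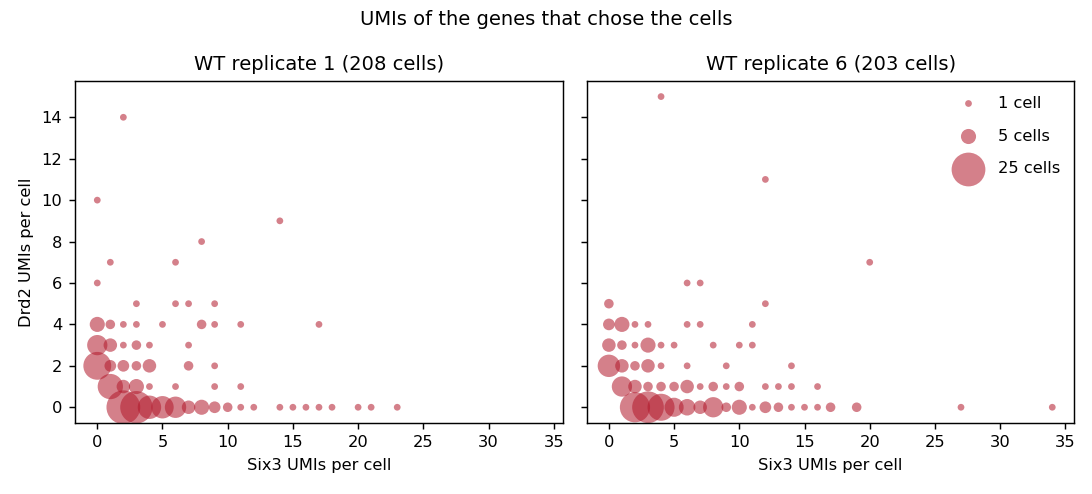
Six3 UMIs per cell (x axis) against Drd2 UMIs per cell (y axis) for the 208 cells of replicate 1 and the 203 cells of replicate 6, with the area of a point giving the number of cells. Most cells lie along the axes, with 212 of 411 at 0 Drd2 UMIs and 53 at 0 Six3 UMIs.

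The sequences before the start of both rule genes are shown with those of Ptprm, the most abundant listed indirect-pathway gene in these cells, and Tac1, which had no UMI in them. They are RefSeq promoter windows of build GRCm38.p6 (mm10), here the 250 bases before the transcript start: chr9:49340153-49340402 on the plus strand for Drd2 (ENSMUSG00000032259), chr17:85620584-85620833 on the plus strand for Six3 (ENSMUSG00000038805), chr17:67354460-67354709 on the minus strand for Ptprm (ENSMUSG00000033278) and chr6:7554811-7555060 on the plus strand for Tac1 (ENSMUSG00000061762). Capitals mark GGGCGG, the core of the GC box read by Sp family factors, of which Sp9 is a member, and TAATTA, a core read by many homeodomain factors, each searched on both strands. These are written 5′ to 3′:
Drd2: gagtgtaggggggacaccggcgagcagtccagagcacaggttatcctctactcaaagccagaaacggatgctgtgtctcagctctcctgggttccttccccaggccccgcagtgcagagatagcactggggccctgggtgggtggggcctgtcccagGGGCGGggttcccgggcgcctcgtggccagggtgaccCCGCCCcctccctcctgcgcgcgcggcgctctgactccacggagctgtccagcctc
Six3: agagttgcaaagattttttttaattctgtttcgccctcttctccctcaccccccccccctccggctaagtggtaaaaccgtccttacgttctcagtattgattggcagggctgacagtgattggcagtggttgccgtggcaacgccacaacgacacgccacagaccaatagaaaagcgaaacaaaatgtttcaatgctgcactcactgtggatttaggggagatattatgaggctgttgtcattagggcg
Ptprm: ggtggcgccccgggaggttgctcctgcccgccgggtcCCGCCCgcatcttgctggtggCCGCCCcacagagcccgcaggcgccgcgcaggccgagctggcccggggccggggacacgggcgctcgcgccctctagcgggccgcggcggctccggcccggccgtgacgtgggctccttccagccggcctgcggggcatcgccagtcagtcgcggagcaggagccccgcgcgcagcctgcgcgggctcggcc
Tac1: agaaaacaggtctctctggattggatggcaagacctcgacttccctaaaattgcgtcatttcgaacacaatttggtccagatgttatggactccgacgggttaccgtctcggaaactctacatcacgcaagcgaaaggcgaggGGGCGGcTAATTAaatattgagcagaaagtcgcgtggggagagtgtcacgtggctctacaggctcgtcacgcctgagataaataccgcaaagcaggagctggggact
Drd2 and Ptprm each held 2 copies of GGGCGG, Tac1 held 1 copy of each motif, and Six3 held neither. Over 32851 windows of the same length, 32.7% held GGGCGG and 4.84% held TAATTA. Of the 19 indirect- and direct-pathway genes looked for, Drd2 and Six3 included, 14 had such a window. The matches describe letters only, and no binding was measured here.

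Drd2/Six3 neurons were first compared with 616 Ebf1/Isl1 neurons (316 and 300 cells), defined by at least 2 UMIs of Ebf1 and Isl1 together and at most 1 of Drd2 and Six3. They met the same GABAergic minimum and likewise held no UMI of Lhx6, Prox1 or Top2a. Syt6 and Gucy1a1 had been named with the class from earlier results of these data and are left aside here. All 5 other indirect-pathway genes tested were higher in Drd2/Six3 neurons, and 2 of 4 direct-pathway genes were lower. All lists were written with earlier results of these data known. Drd2, Six3, Ebf1 and Isl1, which chose the classes, belong to the same pathways, so that part of this contrast was built in. Over all 10900 genes tested, 183 were higher (1.68%) and 414 were lower (3.8%). With the library as a block, 338 were higher and 637 lower. The median log2 difference was 3.69 over the 5 indirect-pathway genes, beside 0.00 over all genes.

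Ptprm, a receptor-type tyrosine phosphatase, was the most abundant of the list. Its level was 1673 and 1805 CPM in Drd2/Six3 neurons and 80.6 and 74.5 CPM in Ebf1/Isl1 neurons, a log2 difference of 4.50 (SE 0.13, adjusted p = 3.61e-07). The zinc finger factor Sp9 read 278 and 318 CPM against 25.3 and 32.5 CPM (log2 difference 3.39, SE 0.15, adjusted p = 6.99e-06). The kainate receptor subunit Grik3 read 459 and 473 CPM against 74.0 and 83.9 CPM (2.58, SE 0.12, adjusted p = 9.35e-06). For all of these the libraries of a class lay close together and the classes were far apart.

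Adora2a and Penk, the receptor and peptide that define indirect-pathway neurons of the adult striatum, were present at far lower levels. Adora2a read 56.2 and 52.4 CPM against 6.09 and 2.10 CPM (log2 difference 3.69, SE 0.34, adjusted p = 0.00024). Penk had 70 and 25 UMIs (46.8 and 19.8 CPM) in Drd2/Six3 neurons and 1 and 0 UMIs in Ebf1/Isl1 neurons. The ratio of the summed Penk levels was 139, with an exact interval from 24.4 to 5563 (edgeR adjusted p = 0.00116). This interval treats each UMI as independent and leaves out the spread between cells and libraries. The 95 Penk UMIs of Drd2/Six3 neurons lay in 37 cells. Penk also differed between the libraries, replicate 1 being the higher. Gpr6 and Gpr52, receptors of the same pathway, were below the low-count filter with 6 and 1 UMIs in all.

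Syt6, a synaptotagmin, and Gucy1a1, a subunit of the nitric oxide receptor guanylyl cyclase, were chosen with the class, so their levels against other cells are given as a description and are left out of the counts. Syt6 read 255 and 273 CPM against 97.9 and 126 CPM in Ebf1/Isl1 neurons, and Gucy1a1 read 749 and 685 CPM against 118 and 76.6 CPM.

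Tac1, the tachykinin precursor of direct-pathway neurons, had no UMI in Drd2/Six3 neurons of either library. It had 95 and 142 UMIs in Ebf1/Isl1 neurons, carried by 4.11% and 3% of those cells. Against a limit of 3 counts per library, Tac1 was at least 22.2-fold lower in Drd2/Six3 neurons of replicate 1 and at least 31.3-fold lower in those of replicate 6 (adjusted p = 0.000389). Zfp521, a zinc finger factor of direct-pathway neurons, read 111 and 44.5 CPM against 442 and 410.2 CPM (log2 difference -2.41, SE 0.30, adjusted p = 0.0014). Sfxn1 read 28.1 and 38.9 CPM against 51.1 and 60.8 CPM and did not pass the test (adjusted p = 0.0785), but it did with the library as a block (adjusted p = 0.0154). The list's median was -1.57, and setting Tac1 at its bound could not change it, as Tac1 stayed the lowest value. Drd1 was below the filter, with 2 UMIs in Drd2/Six3 neurons and 25 in Ebf1/Isl1 neurons.

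**Figure D2:**
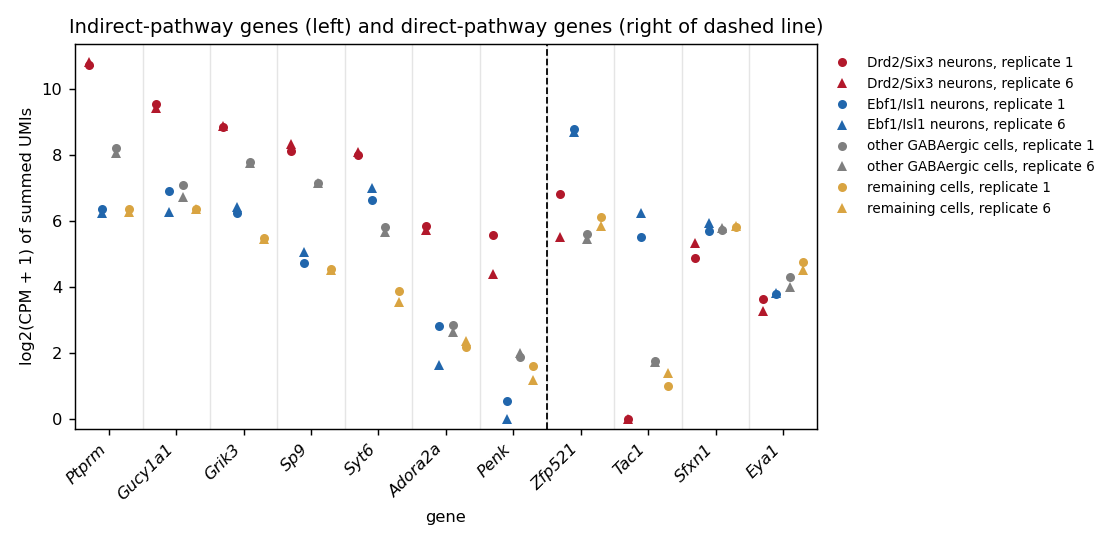
Level of 7 indirect-pathway and 4 direct-pathway genes as log2(CPM + 1) of the UMIs summed per class (y axis), for each gene (x axis), with circles for replicate 1 and triangles for replicate 6. Drd2/Six3 neurons lie above every other class for the 7 genes on the left, and at 0 for Tac1.

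Genes shared by both kinds of striatal projection neuron were divided. Of 19 tested, 5 were higher and 4 lower in Drd2/Six3 neurons, with a median of 0.10. The higher ones included Gng7, Gnal, Meis1 and Meis2. Gng7, a G protein gamma subunit that pairs with the olfactory-type G protein Gnal in striatal neurons, read 37.5 and 37.3 CPM against 10.8 and 3.67 CPM (log2 difference 2.35, SE 0.38, adjusted p = 0.00604). Gnal read 92.3 and 96.1 CPM against 49.7 and 55.1 CPM (0.87, SE 0.14, adjusted p = 0.0064).

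The lower ones were Ikzf1, Foxp2, Rarb and Rxrg, all of them transcription factors. Ikzf1 had 1 UMI in Drd2/Six3 neurons and 353 in Ebf1/Isl1 neurons, the latter in 88 cells. The ratio was 241, with an exact interval from 42.9 to 9529 that again treats each UMI as independent (edgeR adjusted p = 2.68e-05). Rarb, the retinoic acid receptor beta, read 356 and 358 CPM against 589.7 and 680.3 CPM (log2 difference -0.81, SE 0.12, adjusted p = 0.00307). Rxrg, its partner, differed by -0.82 (SE 0.18, adjusted p = 0.0296). With cells thinned to equal depth, Rarb was found in 45.5% and 45.7% of Drd2/Six3 neurons with a Drd2 UMI. That was close to the 47.3% and 47.6% of Ebf1/Isl1 neurons. In Drd2/Six3 neurons with Six3 UMIs only the shares were 9.71% and 13.9%. Of 7 retinoic acid pathway genes tested, 3 were lower, Rarb and Rxrg among them, and none was higher. Foxp1, the forkhead factor of striatal neurons, read 2030 and 1597 CPM against 1359.8 and 1375 CPM (adjusted p = 0.119, and 0.00282 with the block).

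Ikzf1 is also a leukocyte gene. Vessel markers moved with this comparison, Cldn5 reading 1.34 and 2.38 CPM against 79.2 and 77.1 CPM. Of the microglial markers, P2ry12 read 5.35 and 2.38 CPM against 64.2 and 44.1 CPM, while C1qa, C1qb and Csf1r were below the filter. C1qa was found in 4 Drd2/Six3 neurons and 8 Ebf1/Isl1 neurons, P2ry12 in 9 and 127. Of 616 Ebf1/Isl1 neurons, 83 held at least 2 UMIs of Rgs5, Vtn, Igfbp7, Cldn5, P2ry12, C1qa or C1qb, against 6 of the 411 Drd2/Six3 neurons. Rgs5, Igfbp7 and Vtn were the named genes with the largest negative log2 differences outside the lists, at -5.28, -5.08 and -5.06. Without such cells, an alternative chosen after seeing the data, 166 genes were higher and 281 lower. The 5 indirect-pathway genes, Tac1, Zfp521, Ikzf1, Foxp2, Rarb and Rxrg stayed on the same side of the threshold there. The part of these cells in the other differences was not tested.

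Sox2, a factor best known from neural progenitors, was higher in Drd2/Six3 neurons at 339 and 349 CPM against 29.98 and 34.1 CPM (log2 difference 3.44, SE 0.13, adjusted p = 2.16e-06). Among 6 glial progenitor genes it was the only called member, and all cells with a Top2a UMI had been left out by the rule. Tshz1, the zinc finger factor of dorsal LGE and olfactory bulb neurons, read 203 and 225 CPM against 34.2 and 40.4 CPM (2.54, SE 0.14, adjusted p = 1.38e-05). It was the higher gene of the dorsal LGE list, in which Foxp2 was lower and 3 of 5 were not called. The list summed to 3523 and 2779 CPM against 3929.9 and 4698 CPM. Pbx3 read 804 and 464 CPM against 909.6 and 1113 CPM (adjusted p = 0.186, and 0.0128 with the block). Of 7 LGE progenitor and newborn genes, Sp9 and Dlx2 were higher, Dlx2 by 1.21 (SE 0.18, adjusted p = 0.00476). Of 13 interneuron genes, 2 were higher, Erbb4 among them, and 1 was lower.

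Of 21 axon guidance genes tested, 10 were lower and Epha7 alone was higher. With the block 3 were higher and 11 lower. Epha7, an ephrin receptor, read 274 and 218 CPM against 141 and 107 CPM (log2 difference 1.01, SE 0.17, adjusted p = 0.00708). Dcc, the netrin receptor, read 1671 and 2085 CPM against 4019.8 and 4845 CPM (-1.22, SE 0.13, adjusted p = 0.000521). The slit receptor Robo2 differed by -0.90 (SE 0.12, adjusted p = 0.0019). Nrp1, Nrp2, Sema3a, Ntn1, Slit1, Plxnd1, Efna5 and Ephb1 made up the remaining lower genes. The whole list summed to 11069 and 12048 CPM in Drd2/Six3 neurons with a Drd2 UMI. The sums were 6861 and 7541 CPM in those with Six3 UMIs only and 12727 and 15129 CPM in Ebf1/Isl1 neurons.

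Receptor genes for glutamate and GABA differed in both directions, 3 higher and 6 lower of 21, or 9 lower with the block. The AMPA receptor subunit Gria1 read 632 and 857 CPM against 133 and 157 CPM (log2 difference 2.37, SE 0.16, adjusted p = 3.93e-05). Gria4 ran the other way at 98.3 and 114 CPM against 337 and 293 CPM (-1.56, SE 0.13, adjusted p = 0.000148). Among kainate subunits Grik3 was higher while Grik1 and Grik2 were lower, by -1.54 (SE 0.17) and -1.65 (SE 0.14). Gabrg3 was the other higher gene, and Grin2a and Grin2b were also lower.

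Of 11 dopamine and cAMP signalling genes tested without Gucy1a1, 5 were higher and none lower, or 5 higher and 1 lower with the block. DESeq2 gave 3 higher, and so did thinning, which could test 9 of them. Besides Adora2a and Gnal, the 5 higher genes included Gucy1b1, the partner subunit of Gucy1a1, at 256 and 242 CPM against 106 and 99.7 CPM (log2 difference 1.29, SE 0.11, adjusted p = 0.000171). The phosphodiesterase Pde7b was another (0.74, SE 0.15, adjusted p = 0.0237). Ppp1r1b, the adult striatal phosphoprotein, had no UMI in Drd2/Six3 neurons. The mu opioid receptor Oprm1 read 28.8 and 34.9 CPM against 114 and 108 CPM (-1.79, SE 0.16, adjusted p = 0.000193). Of 13 maturation genes, Syt1 was higher and Gap43 and Nefl were lower, and with the block 2 were higher and 5 lower.

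**Figure D3:**
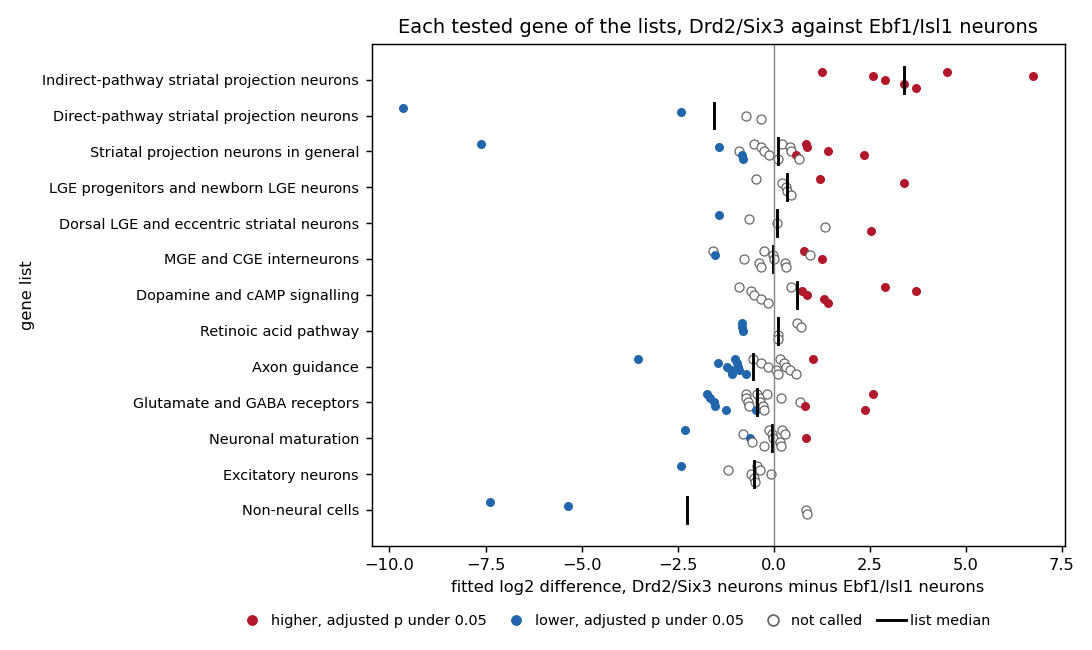
Fitted log2 difference between Drd2/Six3 and Ebf1/Isl1 neurons (x axis) for each tested gene of 13 lists (y axis), filled where the adjusted p was under 0.05, with the list median as a black bar. All 7 indirect-pathway genes lie to the right of 0, Syt6 and Gucy1a1 among them, and the points far to the left are fitted values of genes with few or no UMIs in Drd2/Six3 neurons, such as Tac1 and Ikzf1.

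Outside the lists, Dach2, Slit3, Asic2, Calb1, Plekhh2, Tnr, Grm4, Scube1, Igsf21 and Thsd7b had the largest positive differences. Slit3, a secreted guidance ligand, read 660.3 and 788 CPM against 42.6 and 95.5 CPM (log2 difference 3.42, SE 0.29, adjusted p = 0.000148). Dach2 read 127 and 255 CPM against 12.2 and 6.29 CPM (4.34, SE 0.38, adjusted p = 0.000193). Tnr, an extracellular matrix glycoprotein, differed by 2.75 (SE 0.13) and the acid-sensing channel Asic2 by 2.91 (SE 0.15). On the negative side, the contactin Cntn5 read 121 and 169 CPM against 1475 and 1764 CPM (-3.47, SE 0.17, adjusted p = 9.52e-06), and Lingo2 read 67.6 and 102 CPM against 938 and 1137 CPM (-3.60, SE 0.19, adjusted p = 1.24e-05). Col25a1 and Cntnap3 differed by -4.11 (SE 0.28) and -4.45 (SE 0.35).

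The next comparison set Drd2/Six3 neurons against 3526 other GABAergic cells without Top2a UMIs (1785 and 1741 cells), which include cortical interneurons. Genes of striatal projection neurons were higher in Drd2/Six3 neurons, 11 of 19 in general and 5 of 5 of the indirect pathway, and 15 of 16 interneuron genes were lower. Over 13622 genes, 478 were higher (3.51%) and 633 lower (4.65%). With the block, 978 were higher and 1045 lower.

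The 11 higher striatal genes included the transcription factors Foxp1, Bcl11b, Rarb, Zfp503 and Meis2. Foxp1 read 2030 and 1597 CPM against 402 and 351 CPM (log2 difference 2.31, SE 0.14, adjusted p = 6.72e-05). Zfp503 read 99.0 and 73.0 CPM against 11.2 and 10.1 CPM (3.06, SE 0.19, adjusted p = 6.72e-05). Meis2 was the most abundant of them, at 5274 and 5072 CPM against 1970.1 and 1780.1 CPM (1.51, SE 0.08, adjusted p = 4.79e-05). Rarb, which was lower than in Ebf1/Isl1 neurons, was here higher by 2.67 (SE 0.13, adjusted p = 3.88e-05). Oprm1 was also higher, by 1.13 (SE 0.18, adjusted p = 0.0073). Both comparisons share the Drd2/Six3 sums.

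Retinoic acid genes were higher in 4 of 11 cases and lower in none, among them Rarb, Rxrg and Aldh1a3. Aldh1a3, which makes retinoic acid, had 43 and 15 UMIs in Drd2/Six3 neurons and read 28.8 and 11.9 CPM against 3.39 and 5.05 CPM (log2 difference 2.35, SE 0.43, adjusted p = 0.014). Its libraries differed, but each lay above both sums of the other class.

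Interneuron genes were far lower. The neuropeptide gene Sst read 3.35 and 11.1 CPM against 145 and 106 CPM (log2 difference -4.14, SE 0.35, adjusted p = 0.000298), and the neuregulin receptor Erbb4 read 915 and 847 CPM against 6184 and 6508 CPM (-2.81, SE 0.08, adjusted p = 4.7e-06). Maf, a factor of interneurons from the medial eminence, differed by -3.93 (SE 0.19) and Sox6 by -3.05 (SE 0.16). Adarb2, a marker of interneurons from the caudal eminence, stood at 694 and 439 CPM against 1873 and 1939 CPM (-1.70, SE 0.19, adjusted p = 0.00135). Reln was the gene that was not called, and its level in Drd2/Six3 neurons rested on replicate 1, with 173 UMIs there and 7 in replicate 6 (adjusted p = 0.343, and 0.0153 with the block). The rule itself had excluded cells with Lhx6 or Prox1, which mark these interneurons, so that part of this contrast was built in.

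Of 22 guidance genes 4 were higher and 9 lower. Robo1, a slit receptor, read 2659 and 3059.6 CPM against 1185 and 1061 CPM (log2 difference 1.39, SE 0.09, adjusted p = 0.000104), and Ephb1 was higher by 1.35 (SE 0.12). The ephrin receptor Epha5 was lower, by -1.65 (SE 0.12, adjusted p = 0.00012), and the netrin receptor Unc5c by -2.35 (SE 0.23). Of 22 transmitter receptor genes 1 was higher and 5 lower, or 2 and 10 with the block. Progenitor and newborn genes of the LGE went both ways, with Sp9 higher by 1.12 (SE 0.09) and Dlx2, Sp8 and Gadd45g among the lower genes.

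Zfhx3 led the genes outside the lists, at 1298 and 1392 CPM against 164 and 167 CPM (log2 difference 3.06, SE 0.09, adjusted p = 4.7e-06). With cells thinned to equal depth, Zfhx3 was found in 72.5% and 71.8% of Drd2/Six3 neurons, but also in 65.8% and 65.6% of Ebf1/Isl1 neurons. This homeobox and zinc finger factor was followed by Plekhh2, Slit3, Tle4, Lypd1, Grm4, Caln1, Id4, Nedd9 and Asic2. Tle4, a corepressor, read 656 and 894 CPM against 134 and 127 CPM (2.61, SE 0.14). Nr3c2, the mineralocorticoid receptor, had 2 UMIs in each library of Drd2/Six3 neurons and differed by -5.67 (SE 0.25, adjusted p = 2.95e-05). The neurexophilin Nxph1 differed by -3.76 (SE 0.27) and the potassium channel Kcnc2 by -2.93 (SE 0.13).

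Against all other passing cells (7931 and 8006), 1018 of 18122 genes were higher in Drd2/Six3 neurons (5.62%) and 1777 lower (9.81%). All 5 indirect-pathway genes were again higher, and Ptprm stood at 114 and 104 CPM in the other cells (log2 difference 4.03, SE 0.09, adjusted p = 1.08e-05). Grm4, Zfhx3, Plekhh2, Dach2 and Lypd1 led the genes outside the lists, Grm4, a metabotropic glutamate receptor, by 3.88 (SE 0.21, adjusted p = 5.94e-05). Of these, Zfhx3 was also found in most Ebf1/Isl1 neurons, as given above. Of 9 excitatory neuron genes 8 were lower. The largest negative differences were those of the macrophage gene Pf4, the vessel genes Igfbp7, Vtn and Rgs5, and Tafa1.

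Detection per cell was compared after thinning each cell to 2000 UMIs, which 399 of the 411 Drd2/Six3 neurons reached. Ptprm was then found in 68.6% and 72.3% of Drd2/Six3 neurons (74.0% and 78.8% before thinning), in 8.39% and 5.21% of Ebf1/Isl1 neurons, and in 0.731% and 0.596% of excitatory neurons, a class that should lack striatal messages and whose median depth was 9405 and 8412 UMIs. This class held no UMI of the GABAergic genes or Top2a, and without the GABAergic condition, an alternative chosen after seeing the data, Ptprm was found in 1.83% and 1.77%, Sp9 in 1.06% and 1.34%, and Syt6 in 1.72% and 1.70% of excitatory neurons other than the chosen cells. Sp9 was found in 42.2% and 41.5%, against 0.585% and 0.809% of excitatory neurons. Adora2a was found in 11.3% and 11.8%, against 0.0487% and 0.213%, and Penk in 6.86% and 2.05%, against 0.195% and 0.213%. Syt6 was found in 36.8% and 44.6%, against 1.17% and 1.45% of excitatory neurons but 17.1% and 22.2% of Ebf1/Isl1 neurons. Gucy1a1 was found in 55.4% and 62.1%, but also in 9.01% and 11.6% of excitatory neurons and 13.1% and 12.8% of Ebf1/Isl1 neurons. In Ebf1/Isl1 neurons Sp9 was found in 1.68% and 5.90%, and Adora2a and Penk in 0% at this depth.

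The Drd2/Six3 neurons were then split by Drd2 itself, into 199 cells with a Drd2 UMI (103 and 96) and 212 with Six3 UMIs only (105 and 107). Cells with Drd2 had higher levels of 8 of 17 general striatal genes, 7 of 10 dopamine and cAMP signalling genes without Gucy1a1 and 5 of 20 guidance genes, with none of these lower. Drd2, which made the split, is itself a dopamine receptor gene of striatal neurons, so that part of this contrast was built in. Cells with Six3 only had higher levels of Tshz1, Pbx3, Erbb4 and Adarb2. Over 8233 genes, 129 were higher in cells with Drd2 (1.57%) and 44 lower (0.534%). Median depth was 6362 UMIs in cells with Drd2 and 5640.5 in the others, and after thinning to equal depth 68 genes were higher and 30 lower.

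Foxp1 showed the largest difference among listed genes that were higher, at 3487 and 2455 CPM in cells with Drd2 and 456 and 679 CPM in cells with Six3 only (log2 difference 2.38, SE 0.23, adjusted p = 0.00211). Rarb read 612 and 547 CPM against 79.3 and 156 CPM (2.31, SE 0.26, adjusted p = 0.00299). The cAMP-regulated phosphoprotein Arpp21 read 406 and 355 CPM against 102 and 123 CPM (1.75, SE 0.17, adjusted p = 0.00232). Bcl11b, a factor needed for striatal differentiation, differed by 0.79 (SE 0.14, adjusted p = 0.0242). In the cells with Six3 only, Foxp1 and Rarb lay nearer to the other GABAergic cells than to the Ebf1/Isl1 neurons.

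Of the indirect-pathway list, 2 of 5 were higher in cells with Drd2. Ptprm read 2579.5 and 2679.5 CPM against 694 and 869 CPM (log2 difference 1.74, SE 0.15, adjusted p = 0.00109), and Adora2a read 87.6 and 70.6 CPM against 22.3 and 32.9 CPM (1.53, SE 0.27, adjusted p = 0.0222). Gucy1b1 differed by 1.55 (SE 0.16, adjusted p = 0.00259). Penk read 82.5 and 26.1 CPM against 8.35 and 13.1 CPM and was not called (adjusted p = 0.0926). Sp9 and Grik3 did not pass the test, with Sp9 at 321 and 324 CPM against 231 and 312 CPM (0.24, SE 0.17, adjusted p = 0.597). Even in cells with Six3 only, Ptprm, Sp9 and Grik3 lay above both sums of the Ebf1/Isl1 neurons.

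Gnal, Gng7, Pde10a, Pde7b and Prkar2b, which act in or on cAMP signalling, were all higher in cells with Drd2. Gnal read 131 and 146 CPM against 50.1 and 42.7 CPM (log2 difference 1.55, SE 0.20, adjusted p = 0.00544). The call for Prkar2b was lost with the block (adjusted p = 0.045, then 0.0589). Of the 7 dopamine and cAMP genes, 3 were called with DESeq2 and 2 after thinning to equal depth. Each of these settings could test only 8 of the 10 genes. After thinning, the calls for Gnal, Pde10a, Prkar2b and Adora2a, and also that for Gng7, were lost. Among guidance genes, Robo2 read 2020.3 and 1823 CPM against 598 and 552 CPM (1.73, SE 0.15, adjusted p = 0.00109), with Robo1, Ephb1, Epha7 and Unc5d the others. The neuronal splicing factor Rbfox3 read 117 and 143 CPM against 54.3 and 52.6 CPM (1.26, SE 0.20, adjusted p = 0.0154).

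Tshz1 read 107 and 129 CPM in cells with Drd2 and 308 and 327 CPM in cells with Six3 only (log2 difference -1.44, SE 0.16, adjusted p = 0.00299). Pbx3, a homeodomain cofactor, read 357 and 239.5 CPM against 1286 and 703 CPM (-1.75, SE 0.30, adjusted p = 0.0213). Adarb2 read 170.1 and 252 CPM against 1259 and 639 CPM (-2.20, SE 0.32, adjusted p = 0.00887), and Erbb4 differed by -2.06 (SE 0.28, adjusted p = 0.0056). These 4 genes kept their sign in both libraries, although Pbx3 and Adarb2 in cells with Six3 only were higher in replicate 1. Outside the lists, the vesicular monoamine transporter Slc18a2 was lower in cells with Drd2 by -2.26 (SE 0.40, adjusted p = 0.0243), with Dkk2, Sorcs3, Tox3 and Fign, while Mcc, Sgcz, Cntnap5b, Pcsk2 and Neto1 were higher.

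**Figure D4:**
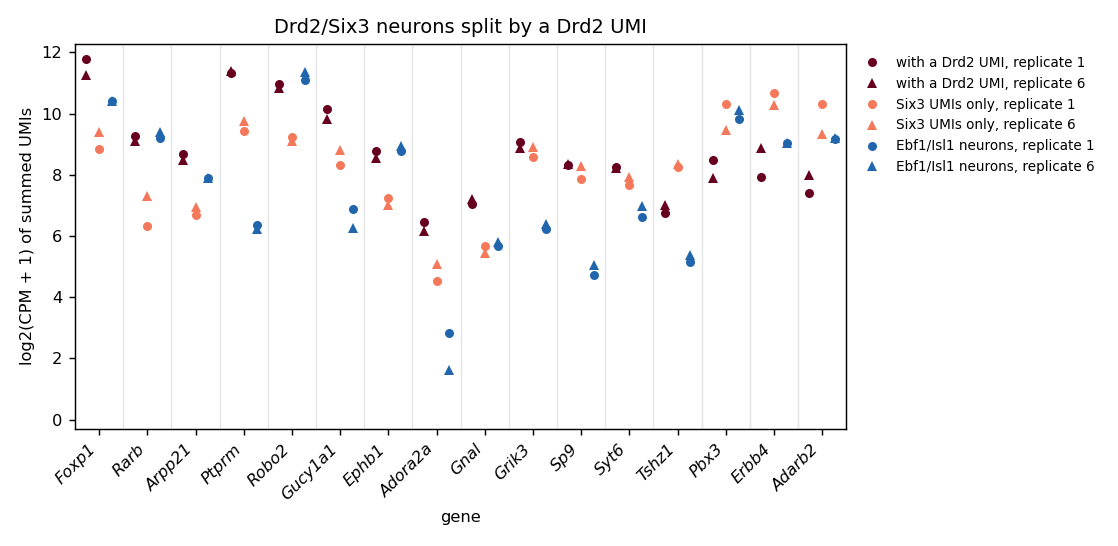
Level of 16 genes as log2(CPM + 1) of summed UMIs (y axis) in Drd2/Six3 neurons with a Drd2 UMI, in those with Six3 UMIs only and in Ebf1/Isl1 neurons, with circles for replicate 1 and triangles for replicate 6. Foxp1, Rarb and Arpp21 are higher in cells with Drd2, Grik3 overlaps between the subsets, Sp9 does not pass the test,, and Tshz1, Pbx3, Erbb4 and Adarb2 are higher in cells with Six3 only.

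At 2000 UMIs per cell, Ptprm was found in 93.1% and 93.6% of cells with Drd2 and in 44.7% and 52.5% of cells with Six3 only. Foxp1 was found in 94.1% and 90.4% against 42.7% and 39.6%, the latter close to the 40.5% and 37.1% of excitatory neurons, which express Foxp1 themselves. For Sp9 the shares were 43.6% and 40.4% against 40.8% and 42.6%, and overlapped. Pbx3 was found in 28.7% and 22.3% of cells with Drd2 and 47.6% and 45.5% of cells with Six3 only, but in 64.8% and 65.3% of Ebf1/Isl1 neurons. Adarb2 was found in 12.9% and 8.51% of cells with Drd2 and 43.7% and 35.6% of cells with Six3 only. Ebf1/Isl1 neurons carried Adarb2 about as often as the latter, in 41.3% and 38.9% of cells. Since Foxp1 and Rarb differed this much between the subsets and no position in the tissue was measured, the 411 cells are called Drd2/Six3 neurons and not striatal neurons.

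**Figure D5:**
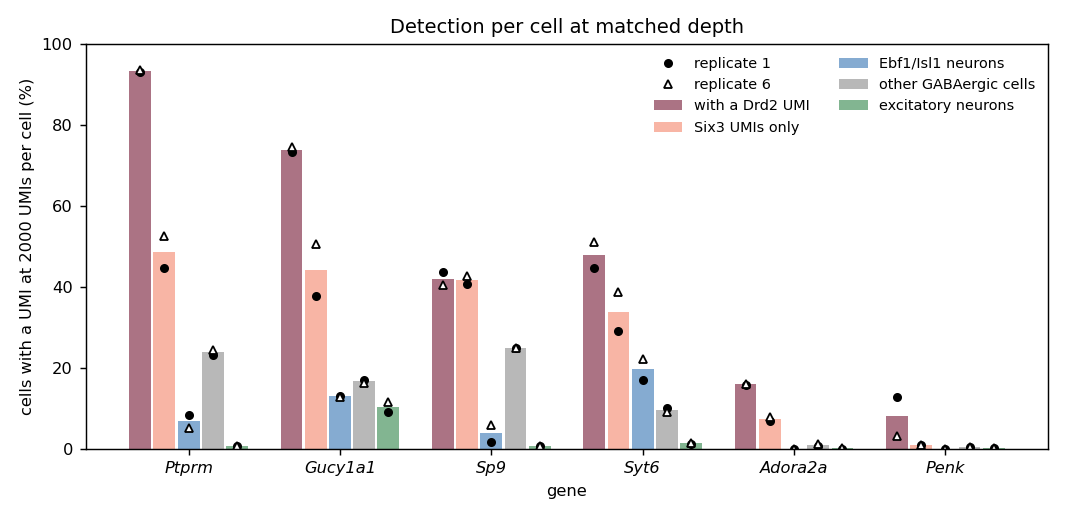
Share of cells with a UMI of each gene after thinning to 2000 UMIs per cell (y axis, percent), for 6 genes (x axis) and 5 classes, with bars for the mean of 2 libraries and points for each. Ptprm reaches 93.1% and 93.6% in cells with Drd2 and stays under 1% in excitatory neurons.

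Messages of other cell types were present at low levels. Of 411 Drd2/Six3 neurons, 46 (11.2%) held at least 2 UMIs of the excitatory genes Neurod2 and Neurod6 together, and 270 held none. The 9 excitatory markers summed to 367 and 559.7 CPM, against 2088 and 2106 CPM in the remaining passing cells. The microglial gene C1qa and the vessel gene Cldn5 each had 2 and 3 UMIs, and the fibroblast gene Col1a1 had none. Globin messages were the exception, Hbb-bs reading 6042 and 2719 CPM against 2569.7 and 2403 CPM in Ebf1/Isl1 neurons (adjusted p = 0.179, and 0.00517 with the block). Within the Drd2/Six3 neurons it read 3399 and 1182 CPM in cells with Drd2 and 8897 and 4364 CPM in cells with Six3 only (adjusted p = 0.153, and 0.00282 with the block), and its part in the differences between these subsets was not tested.

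The threshold on Drd2 and Six3 cut through a continuous range. The 96 members with exactly 2 such UMIs (56 and 40) had Ptprm at 1485 and 1554 CPM and Tshz1 at 126 and 289 CPM. The cells just outside, which met every other criterion with 1 such UMI (96 and 87), had Ptprm at 980 and 1033 CPM and Tshz1 at 179.6 and 302 CPM. Tac1 was at 0 UMIs in both sets. Of 695 cells with enough Drd2, Six3 and GABAergic UMIs, 167 had a Top2a UMI, 30 an Lhx6 UMI, 62 a Prox1 UMI and 118 too many Ebf1 or Isl1 UMIs, with overlaps.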

How the data were processed

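Single-cell 3' v3.1 libraries of 2 WT samples were aligned by the authors with Cell Ranger 7.0.0 to mm10, per the submitters' processing notes, and deposited as raw UMI counts per gene and cell barcode. Whether intronic reads were counted is not given in the sources used here. The cells and all gene lists were chosen with earlier results of these data known.

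Counts of each class were added up within a library. Genes were tested with edgeR 4.0.16 in R 4.3.3 (filterByExpr, TMM, quasi-likelihood F-test, Benjamini-Hochberg adjustment, calls at an adjusted p under 0.05, prior count 0.5), 2 sums against 2. The rule genes and Six3os1 were not tested. Sums of the same library deviated together (correlations 0.293, 0.2, 0.152 and 0.216 for the 4 comparisons in the order reported), so the library is a real pairing, and a fit with it as a block was an alternative. Other alternatives were DESeq2 1.42.0, no low-count filter, no TMM, a fit of all classes, stricter cells, doublets or mixed cells left out, at least 3 Drd2 and Six3 UMIs, and thinning to 2000 UMIs. The fitting code was tested on simulated data. Doublets were scored in Python 3.11.15 (numpy 2.4.6, scikit-learn 1.9.0) from 2 simulated doublets per cell, 2000 genes and 30 principal components, at 0.8% per 1000 barcodes, and were kept. Excitatory neurons had at least 4 UMIs of Neurod2 and Neurod6 and none of Gad1, Gad2, Dlx1, Dlx6os1 or Top2a.

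Named genes are the tested members of the lists and, outside them, the called genes of at least 50 CPM in the higher class, with the same sign in both libraries and the largest differences: 10 each way for the comparisons with Ebf1/Isl1 neurons and other GABAergic cells, and 5 for the others. Promoter windows came from RefSeq (GRCm38.p6). The tables hold no position in the tissue. Results for some listed genes are not reported here.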

Additional observations from a re-analysis of the deposited data

Results flagged for a closer look

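Among barcodes below the minimum of 1500 UMIs, which entered no comparison, 4 of 4018 in replicate 1 and 11 of 3802 in replicate 6 met the gene rule for Drd2/Six3 neurons. Both numbers lie above the 3 counts that a count of 0 allows, a limit that cannot tell whether they are unusual for such shallow barcodes. The series part used here has no control samples to set them against.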

How the results depend on the processing

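The share of Drd2/Six3 neurons moved from 2.51% to 3.1% with 3000 to 30000 UMIs and under 5% mt- UMIs, to 2.34% without mixed cells and to 1.93% with at least 3 Drd2 and Six3 UMIs, and was 2.47% and 2.56% without either library. Against Ebf1/Isl1 neurons the higher and lower genes numbered 336 and 738 with no low-count filter, 112 and 249 with DESeq2, and 338 and 637 with the library as a replicate block. A single fit of all classes gave 283 higher, and thinning gave 242 lower. Against other GABAergic cells they numbered 978 and 1045 with the block, while DESeq2 gave 313 higher and thinning 307. Against all other cells thinning gave 470 and 807. For cells with Drd2 against Six3 only they numbered 313 and 173 with no filter and 68 and 25 with DESeq2. Thinning gave 68 higher there, and lower genes numbered 87 without doublets and 79 with stricter cells. Between these subsets the log2 difference of Grik3 ranged from -0.021 (without replicate 1) to 0.46 (without replicate 6) and that of Sp9 turned to -0.14 after thinning, neither of them called in the main comparison. Without thinning, mean detection was 76.4% for Ptprm, 73.0% for Gucy1a1, 67.4% for Syt6, 72.5% for Sp9, 26.5% for Adora2a and 8.97% for Penk. The cause of these shifts was not tested. Of 73 called named genes against Ebf1/Isl1 neurons, 59 stayed called in each of the 11 alternatives that could test them, and of 36 between the subsets, 20 did so in 9. With a library left out each class keeps 1 sum, so those values carry no test. Penk, Adora2a and other genes of few UMIs are limited by depth.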

Other observations

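Cells meeting both the Drd2 and Six3 threshold and that of Ebf1 and Isl1 were few, 22 and 26. They formed no compared class of their own and were summed with all other passing cells. They read 871 and 928 CPM for Ptprm and 83.6 and 119 CPM for Sp9, between the levels of Drd2/Six3 and Ebf1/Isl1 neurons. Tac1, absent from Drd2/Six3 neurons, read 52.8 and 32.2 CPM there, and Penk had 0 and 2 UMIs.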
